A study of Mus musculus with 18 samples.

Results

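The regions described here were 238 of the 42403 GATA6 binding regions of the deposited table. They were selected on 4 deposited classes, namely Transient GATA6 binding, pluripotency transcription factors (PTFs) bound from d0, no SOX17 peak and a promoter-type histone state in undifferentiated cells. The columns used give each class as a name without the values behind it, so how near a member lay to a class border could not be read. GATA6 dynamics, PTF peaks, SOX17 peaks and histone state were not tested because they chose the members. Chromatin of mouse embryonic stem (ES) cells of the KH2 line was digested with MNase and sequenced in 18 libraries. All of the cells were of C57BL/6 x 129/Sv genotype and carried a doxycycline (Dox) inducible gata6 cassette, and there were 3 replicates each of untreated cells (d0) and of 8, 16, 24, 48 and 96 h in Dox. The transgene was HA-tagged GATA6 in individually picked clones grown on feeder fibroblasts, and the labels do not say which clone or culture gave each replicate. The table was analysed without any MNase-seq value, so nucleosome signal at these regions was not analysed here, the columns used give no counts from which the depth behind each region could be read, and every comparison is between sets of regions.

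GATA6 is a zinc finger transcription factor of the GATA family that specifies the primitive endoderm (PrE), the extra-embryonic lineage that forms beside the pluripotent epiblast in the blastocyst. It recognises the letters GATA, often followed by A, on either strand. OCT4 and SOX2 bind side by side on a composite OCT4:SOX2 motif and ESRRB, an orphan nuclear receptor, binds an extended AAGGTCA half-site. These 3 PTFs maintain self-renewal of ES cells and occupy enhancers and promoters of their own genes. Forced GATA6 expression turns ES cells towards PrE, and Transient regions are those where GATA6 binds soon after induction and is later lost.

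The sequences of 3 regions are shown because their best GATA6 motif and their best OCT4:SOX2 motif lay within 50 bp of each other and of the GATA6 summit, the base of highest GATA6 signal. The arrangement was found in 13 of the 238 regions, and the 3 shown are among the 5 with the highest sum of motif scores. The others are not printed. Its share in other sets is not given here. Among regions with both motifs, their centres lay within 50 bp of each other in 17.0% of members and 19.3% of all regions. Capitals mark the motifs and lower case the neighbouring bases, read 5′ to 3′ on the plus strand of GRCm38 (mm10), with 20 bases to each side.
Cebpzos, chr17:78916049-78916145: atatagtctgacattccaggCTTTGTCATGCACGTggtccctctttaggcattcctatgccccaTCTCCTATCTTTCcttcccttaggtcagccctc
Rnf220, chr4:117290018-117290085: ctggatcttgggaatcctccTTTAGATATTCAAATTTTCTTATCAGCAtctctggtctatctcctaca
Rps18-ps3, chr8:107262107-107262201: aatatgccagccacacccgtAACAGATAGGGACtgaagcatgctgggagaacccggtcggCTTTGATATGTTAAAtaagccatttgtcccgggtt
At Cebpzos and Rnf220 the OCT4:SOX2 motif was the left run of 15 bases and the GATA6 motif the right run of 13 bases. At Rnf220 the motifs adjoined with no base between them, so that the capitals form 1 run. At Rps18-ps3 the GATA6 motif stood on the left. The motif score is the log-odds match of the best hit of a motif matrix in a region, so a higher score is a closer match. The GATA6 scores were 9.44 at Cebpzos, 12.04 at Rnf220 and 7.84 at Rps18-ps3. The OCT4:SOX2 scores in the same order were 14.6, 10.1 and 13.6.

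A second set is shown because it lies at loci of the pluripotency network itself. The region at Nanog, which encodes a core pluripotency factor, held both best motifs upstream of the transcript start. The others were near Pou5f1 (the gene of OCT4), Esrrb, Lefty2 (a secreted inhibitor of Nodal signalling) and Klf4 (a Krüppel-like factor of naive pluripotency). Capitals mark the best OCT4:SOX2 motif and, at Nanog, also the best GATA6 motif on its left. Apart from Nanog, these loci were chosen after their values were seen, and they do not stand for all members near pluripotency genes. Other members within 150 kb of a gene on the pluripotency list described below had OCT4:SOX2 scores from 5.15 (Nr5a2) to 17.3 (Trp53). The member at Dppa5a held no OCT4:SOX2 motif.
Nanog, chr6:122707330-122707447: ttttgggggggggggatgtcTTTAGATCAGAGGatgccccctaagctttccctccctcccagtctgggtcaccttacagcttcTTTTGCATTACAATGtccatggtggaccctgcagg
Pou5f1, chr17:35504749-35504803: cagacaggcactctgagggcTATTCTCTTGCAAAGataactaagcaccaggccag
Esrrb, chr12:86498962-86499016: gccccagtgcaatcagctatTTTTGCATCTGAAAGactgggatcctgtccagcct
Lefty2, chr1:180888806-180888860: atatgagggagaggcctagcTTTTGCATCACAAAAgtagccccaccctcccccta
Klf4 downstream region, chr4:55477520-55477574: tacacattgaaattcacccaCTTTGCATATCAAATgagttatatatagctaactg
The OCT4:SOX2 scores were 17.7 at Nanog, 12.8 at Pou5f1, 16.0 at Esrrb, 16.7 at Lefty2 and 14.7 at the Klf4 downstream region. The GATA6 motif at Nanog scored 7.04, well under the mean of 9.50 over the regions that hold one, and the region at Esrrb held no GATA6 motif. The best GATA6 motifs at Pou5f1, Lefty2 and the Klf4 downstream region scored 9.32, 9.63 and 11.3 and lay outside the bases printed.

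The promoter label was first checked against the annotation (GENCODE M21). A GATA6 summit lay within 1 kb of an annotated transcript start in 108 of the 238 regions, or 45.4% (95% Wilson interval 39.2 to 51.7). For protein-coding transcripts the count was 86, or 36.1%. The regions are therefore called promoter-state regions here, since most summits were not at an annotated start. The median distance to the nearest start was 1152 bp, with quartiles of 300 and 5629 bp. In 26 regions the summit lay within 100 bp of a start, and in 17 it lay over 20 kb away. Of the 108 summits within 1 kb, 63 were upstream of the start and 45 at or downstream of it. By annotated feature, 109 summits fell in introns, 95 between genes, 18 in UTRs, 14 in non-coding exons and 2 in coding exons. The regions were spread over 20 chromosomes, with 2 to 22 on each, and their median width was 708 bp (204 to 2256 bp).

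The 3 sets of regions that differ from these in 1 class were used for comparison. They were 1237 active enhancers (Transient, PTFs from d0, no SOX17), 700 promoter-state regions without PTFs (Transient, no SOX17) and 27 promoter-state regions of the Early&Constant cluster (PTFs from d0, no SOX17). Shares were compared by two-sided Fisher's exact tests, adjusted together over 24 tables by the Benjamini-Hochberg method, and 13 of the 24 passed an adjusted p of 0.05. Regions are the units of these tests and neighbouring regions are not independent, so the number of chromosomes that show a direction is given where a test passed. The share of summits within 1 kb of a start was 9.78% in active enhancers (121 of 1237). The log2 odds ratio against them was 2.94 (95% interval 2.48 to 3.39, adjusted p = 4.81e-34), and the members had the higher share on 19 of 19 chromosomes with at least 3 regions of each set. The share was 66.1% in promoter-state regions without PTFs (463 of 700), above that of the members, with a log2 odds ratio of -1.23 (-1.67 to -0.80, adjusted p = 7.55e-08) and the higher share in the members on 1 of 19 chromosomes. Against the 27 Early regions, of which 17 (63.0%) lay within 1 kb, the difference did not pass the test (log2 odds ratio -1.03, -2.22 to 0.15, adjusted p = 0.166). Restricted to protein-coding starts this last comparison passed, at 36.1% against 59.3% (log2 odds ratio -1.36, adjusted p = 0.0388). The PTF-bound promoter-state regions thus lay between active enhancers and promoter-state regions without PTFs in their nearness to starts.

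**Figure D1:**
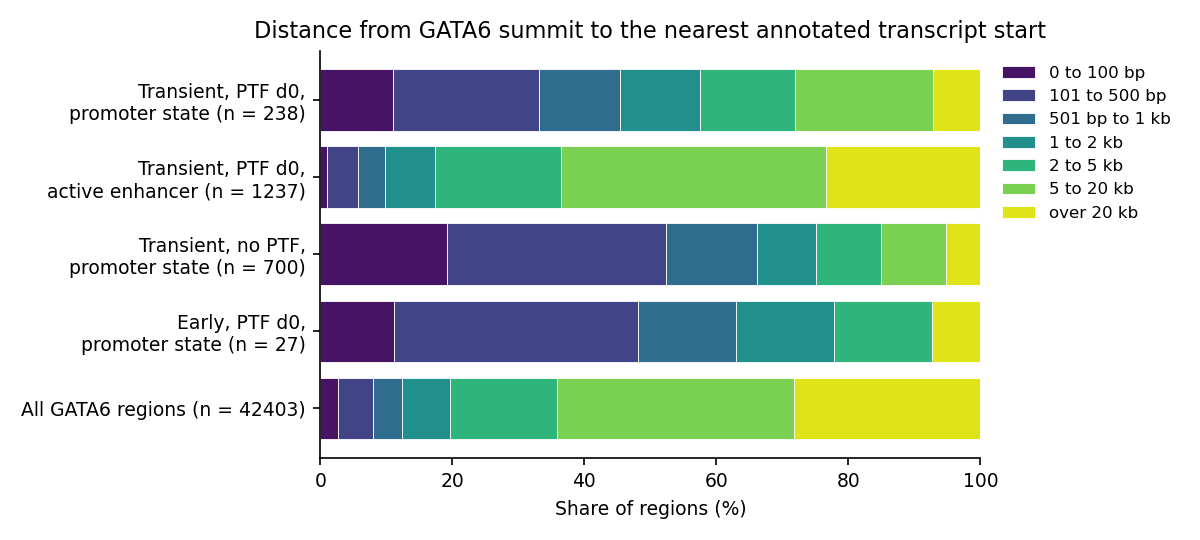
Share of regions (x axis, %) in 7 classes of distance from the GATA6 summit to the nearest annotated transcript start (colours), for the 238 regions (top), the 3 comparison sets and all 42403 GATA6 regions. Summits within 1 kb made up 45.4% of the top bar, 9.78% of the active enhancers and 66.1% of the promoter-state regions without PTFs.

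The genes at these starts were counted on 5 lists of genes. Of the 50 pluripotency genes, 5 had a summit of a member within 1 kb, against 0 for active enhancers, 2 for promoter-state regions without PTFs (Sall1 and Tet1) and 1 for Early regions (Zfp57). The 5 genes were Nanog, Dppa3, Dppa5a, Tbx3 and Nr5a2. Of 51 signalling genes, Axin2 and Fgfr2 had one, and of 59 chromatin regulators Kat5 had one. None of the 30 PrE genes and none of the 51 cell cycle and growth genes did. No PrE gene had a summit within 1 kb in any comparison set either. Promoter-state regions without PTFs had Fgfr2 and Lef1 of the signalling genes and Setdb1 of the chromatin regulators. They also had Ccnd1, Chek1 and E2f2 of the cell cycle and growth genes. Active enhancers and Early regions had none on these lists. At the members near Tbx3 and Fgfr2 the start within 1 kb was not that of a protein-coding transcript. These sets differ in size, the lists were chosen with results of these data known, and the counts were not tested. By symbol, the 120 genes with a start within 1 kb of a member held no cytosolic or mitochondrial ribosomal protein gene, respiratory chain gene, translation factor gene, histone gene or snoRNA host gene, and 2 zinc finger genes of the Zfp series (Zfp763 and Zfp819). The 542 genes at promoter-state regions without PTFs held 2, 4, 3 and 4 genes of the first 4 of these families. Of the same 4 families, the 123 genes at active enhancers held only Atp5s, of the respiratory chain. The 23 genes at Early regions held none. The family counts come from sets of unequal size and were not tested.

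The region at Nanog (chr6:122707247-122707684) had its summit 25 bp downstream of the start, in the UTR, and was classed as accessible at d0. The region at Dppa3 (chr6:122626156-122626773), the gene of a maternal factor that also marks naive pluripotency, had its summit 67 bp upstream of the start. It was of the moderate accessibility class, with a GATA6 score of 7.62 and an OCT4:SOX2 score of 7.79. At Tbx3 (chr5:119679582-119680652), the gene of a T-box factor of self-renewal, the summit lay in an intron and in accessible chromatin. It was 190 bp upstream of an annotated start and 9041 bp downstream of the nearest protein-coding transcript start. That region held an OCT4:SOX2 motif scoring 9.77 and no GATA6 motif. At Nr5a2 (chr1:136952470-136953146), the gene of an orphan nuclear receptor, the summit lay 817 bp downstream, with a GATA6 score of 10.6 and an OCT4:SOX2 score of 5.15. These 4 regions thus ranged from a strong to a weak OCT4:SOX2 motif, and 3 of them held a GATA6 motif.

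Dppa5a (chr9:78368049-78368481), a marker of naive ES cells, is shown as the region of this list without a GATA6 or an OCT4:SOX2 motif. Its summit lay 172 bp upstream of the start in accessible chromatin. Its best ESRRB motif, in capitals and on the minus strand, scored 9.53.
Dppa5a, chr9:78368381-78368431: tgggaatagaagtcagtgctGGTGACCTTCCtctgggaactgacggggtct
Over all members, 10 of 238 held neither a GATA6 nor an OCT4:SOX2 motif, and 4 held none of the 4 motifs scanned (GATA6, OCT4:SOX2, ESRRB and SOX17). Those 4 were all classed as accessible at d0.

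Among signalling and chromatin genes, the region at Axin2 (chr11:108920164-108920821), a Wnt target gene whose product scaffolds β-catenin degradation, had its summit 124 bp downstream of the start. Its GATA6 and OCT4:SOX2 scores were 8.37 and 8.96, and its GC content of 62.7% was above the upper quartile of the members, 55.2%. At Fgfr2 (chr7:130264463-130265154), the gene of an FGF receptor, the summit lay in a non-coding exon, with an OCT4:SOX2 score of 10.1 and no GATA6 motif. It was 821 bp upstream of an annotated start and 1395 bp downstream of the nearest protein-coding transcript start. At Kat5 (chr19:5610618-5611006), which encodes the acetyltransferase of the TIP60 complex, the summit lay 648 bp upstream, with a GATA6 score of 11.6 and an OCT4:SOX2 score of 15.2. The Kat5 region was the only one of these 3 in the moderate accessibility class.

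Around pluripotency genes the regions also lay away from starts. Within 150 kb of a member lay the starts of 20 of the 50 pluripotency genes, with 21 members concerned. For comparison, 26 genes of the list lay that near to one of the 1237 active enhancers, 14 to one of the 700 promoter-state regions without PTFs and 2 to one of the 27 Early regions. This distance was chosen after the values were seen, and the counts were not tested. At Pou5f1 (chr17:35504679-35505611) the summit lay 1185 bp upstream of the start. At Esrrb (chr12:86498634-86499341) it lay 5422 bp upstream, and at Lefty2 (chr1:180887932-180889384) 4227 bp upstream. At Tet1, the gene of a DNA demethylase, it lay 2010 bp downstream, and at Nr0b1, an X-linked orphan nuclear receptor gene, 1036 bp downstream. Near Klf4 (chr4:55476864-55479015) it lay 54253 bp downstream, and near Sox2 a pair of regions (chr3:34756233-34757552 and chr3:34757838-34758348) lay 106206 and 107630 bp downstream. Tbx3 had 4 members within 150 kb, at offsets of -13110, -190, 1815 and 29786 bp from the nearest of its annotated starts. The offset of -13110 bp is from a protein-coding start and the others are from a different start farther downstream. The offsets therefore do not give the distances between all of these summits. Of these regions, the one at Nr0b1 and the farthest upstream of Tbx3 were of the moderate class, and the others were accessible.

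Accessibility at d0 (an ATAC-seq class of untreated cells, not used by the rule) set the members apart from both larger comparison sets. Of the 238 regions 148 (62.2%, 55.9 to 68.1) were accessible, 89 were moderate and 1 was closed. Among active enhancers 43.2% were accessible (535 of 1237), with a log2 odds ratio of 1.11 (0.70 to 1.52, adjusted p = 2.33e-07) and a higher share in the members on 17 of 19 chromosomes. Among promoter-state regions without PTFs 35.3% were accessible (247 of 700), with a log2 odds ratio of 1.59 (1.15 to 2.03, adjusted p = 3.33e-12), again on 17 of 19 chromosomes. The difference lay between the accessible and moderate classes, since accessible and moderate together made up 99.6% of the members, 99.6% of the active enhancers and 98.7% of the promoter-state regions without PTFs, and neither difference then passed the test. Against Early regions (15 of 27, 55.6%) the log2 odds ratio was 0.40 (-0.76 to 1.55, adjusted p = 0.654). Over all 42403 regions 7.43% were accessible. The closed member (chrX:94233845-94234418) had its summit 492 bp upstream of Klhl15, with an OCT4:SOX2 score of 15.3.

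The members were also split by nearness to a start and by accessibility. Of the 108 regions within 1 kb of a start 59.3% were accessible, and of the 130 others 64.6%. GATA6 motifs were held by 70.9% of the accessible members and by 87.6% of the moderate ones. The mean best GATA6 score was 9.20 (SD 1.999, n = 105) in accessible and 9.94 (SD 2.49, n = 78) in moderate members. The mean best OCT4:SOX2 score was 11.0 (SD 3.52, n = 122) in accessible and 9.70 (SD 3.403, n = 80) in moderate members. None of these differences was tested, and the scores of single regions overlapped between accessible and moderate members. Moderate members were also wider, at a median of 794 bp against 668 bp in accessible ones. These shares and scores were not adjusted for width.

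Most of the regions held an OCT4:SOX2 motif and a GATA6 motif. The OCT4:SOX2 motif was present in 203 of 238 regions (85.3%, 80.2 to 89.2), the GATA6 motif in 184 (77.3%, 71.6 to 82.2), a SOX17 motif in 149 (62.6%, 56.3 to 68.5) and an ESRRB motif in 115 (48.3%, 42.1 to 54.6). Both a GATA6 and an OCT4:SOX2 motif were present in 159 regions, OCT4:SOX2 without GATA6 in 44, GATA6 without OCT4:SOX2 in 25, and all 4 motifs in 61. Over all GATA6 regions the shares were 71.5% for OCT4:SOX2, 89.7% for GATA6, 69.2% for SOX17 and 36.3% for ESRRB. The rule used called PTF peaks and not these motifs. However, the peaks were of factors that bind the OCT4:SOX2 and ESRRB motifs. The rule itself thus favours these motifs in the members over regions without PTFs. Tests of their share or position against that set are not independent of the rule.

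The highest-scoring motifs of the members, 2 for each matrix and on the strand of the motif, are shown to let the 4 motifs be compared.
Pdgfa, GATA6 motif, chr5:138997043-138997055, plus strand: AGGAGATAAGAGG
6030442K20Rik, GATA6 motif, chr1:132471777-132471789, minus strand: CAGAGATAAGAAG
Fam169a, OCT4:SOX2 motif, chr13:97067215-97067229, plus strand: CTTTGTTATGCTAAT
Ttyh1, OCT4:SOX2 motif, chr7:4124384-4124398, minus strand: CATTGTGATGCTAAT
Acoxl, ESRRB motif, chr2:127839714-127839724, plus strand: TCAAGGTCATT
Spred2, ESRRB motif, chr11:19920798-19920808, minus strand: TCAAGGTCATT
Sgms1, SOX17 motif, chr19:32343998-32344006, minus strand: CTCATTGTC
Tcf7l1, SOX17 motif, chr6:72787470-72787478, plus strand: CACATTGTC
The GATA6 motifs at Pdgfa, the gene of a ligand of the PDGF receptor that marks PrE, and near 6030442K20Rik scored 14.7 and 14.6. The OCT4:SOX2 motifs at Fam169a and Ttyh1 scored 19.6 and 18.1. The ESRRB motifs at Acoxl and near Spred2, the gene of an inhibitor of RAS-ERK signalling, were the same 11 bases and scored 18.1. The SOX17 motifs near Sgms1 and Tcf7l1, the gene of a repressor of Wnt targets, scored 12.8 and 12.3. The Fam169a region (chr13:97066488-97067346) combined the highest OCT4:SOX2 score with a GATA6 score of 14.3, its summit lying 361 bp upstream of the start.

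Against promoter-state regions without PTFs, the largest difference was in the OCT4:SOX2 motif, present in 40.0% of those regions (280 of 700). The log2 odds ratio was 3.12 (2.56 to 3.68, adjusted p = 1.44e-34), with a higher share in the members on 19 of 19 chromosomes. Because the members were wider (median 708 against 492 bp), the comparison was repeated within 5 bins of width, where the log2 odds ratio was 2.62. Among regions within 1 kb of a start the shares were 87.0% of 108 members and 36.1% of 463 regions without PTFs. The ESRRB motif was present in 23.9% of the regions without PTFs, with a log2 odds ratio of 1.58 (1.13 to 2.02, adjusted p = 2.76e-11) that was 1.06 within the width bins. The SOX17 motif was present in 38.4%, with a log2 odds ratio of 1.42 (0.99 to 1.86, adjusted p = 4.21e-10) that was 0.73 within the width bins. The share in the members was the higher on 17 of 19 chromosomes for ESRRB and on 18 of 19 for SOX17. The GATA6 motif differed in the other direction, being present in 85.6% of the regions without PTFs (599 of 700). Its log2 odds ratio was -0.80 (-1.33 to -0.27, adjusted p = 0.00832), and -1.87 within the width bins, and the members had the higher share on 7 of 19 chromosomes. Members had the lower share of GATA6 motifs even though they were wider. The OCT4:SOX2 and ESRRB differences are not independent of the rule, which separated these sets by PTF peaks.

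Against active enhancers the motif differences were smaller. The OCT4:SOX2 motif was present in 92.8% of the enhancers (1148 of 1237), with a log2 odds ratio of -1.15 (-1.76 to -0.55, adjusted p = 6.97e-04). The SOX17 motif was present in 72.8%, with a log2 odds ratio of -0.68 (-1.10 to -0.26, adjusted p = 0.00351). The members had the higher share on 6 of 19 chromosomes for OCT4:SOX2 and on 2 of 19 for SOX17. Both calls held within the width bins, at -1.22 (adjusted p = 1.75e-04) and -0.75 (adjusted p = 0.00153). With only regions whose widths lay in the interquartile range of the members, which leaves fewer regions, both calls were lost at log2 odds ratios of -0.77 (adjusted p = 0.169) and -0.70 (adjusted p = 0.0525). They were also lost when the highest-scoring hit was required to begin at most 100 bp from the summit, at -0.30 (adjusted p = 0.234) and -0.50 (adjusted p = 0.0935). The GATA6 motif, in 82.3% of the enhancers, did not pass the test (log2 odds ratio -0.45, -0.93 to 0.04, adjusted p = 0.142), nor did the ESRRB motif, in 51.2% (log2 odds ratio -0.16, -0.57 to 0.24, adjusted p = 0.582). Against Early regions none of the 4 motifs passed the test, and with 27 regions the intervals were wide. The GATA6 motif was present in 88.9% of the Early regions, at a log2 odds ratio of -1.23 (-3.02 to 0.55, adjusted p = 0.328). The OCT4:SOX2 motif was present in 85.2%, with a log2 odds ratio of 0.01 (-1.60 to 1.63, adjusted p = 1).

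**Figure D2:**
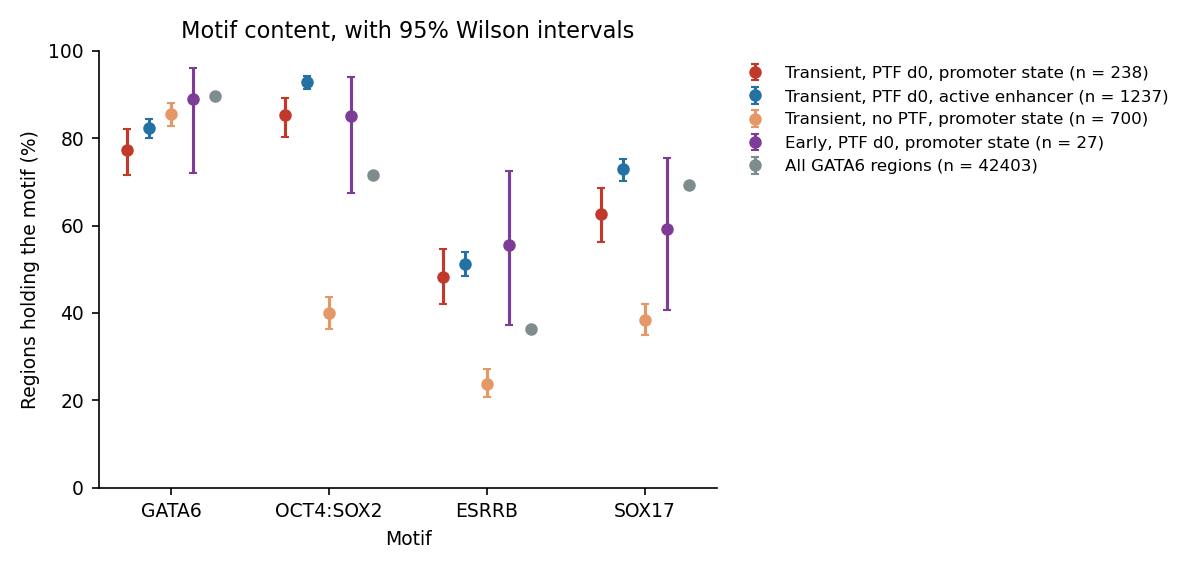
Share of regions holding each of 4 motifs (y axis, %) in the 238 regions (red), the 3 comparison sets and all GATA6 regions, with bars giving 95% Wilson intervals, which cover counting error over regions only. The OCT4:SOX2 motif was held by 85.3% of the members and 40.0% of promoter-state regions without PTFs, while the GATA6 motif was held by 77.3% and 85.6%.

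For GATA6 and for OCT4:SOX2, the members and the 3 comparison sets ranked by mean score in the same order as by the share with the motif. The mean best GATA6 score of the members was 9.50 (SD 2.25, n = 184, quartiles 7.75, 8.995 and 10.7). It was 9.56 (SD 2.23) in active enhancers, 10.2 (SD 2.40) in promoter-state regions without PTFs, 10.6 (SD 2.90) in Early regions and 10.5 (SD 2.39) over all regions. The mean best OCT4:SOX2 score of the members was 10.5 (SD 3.53, n = 203, quartiles 7.42, 10.1 and 13.1). It was 10.9 (SD 3.29) in active enhancers, 7.52 (SD 2.14) in promoter-state regions without PTFs, 9.12 (SD 3.16) in Early regions and 8.79 (SD 2.77) over all regions. These means were not tested, and the scores of single regions overlapped between all sets. The letters GATAA were present in the best GATA6 motif of 54.9% of the 184 members with one, against 57.5% in active enhancers, 78.3% in promoter-state regions without PTFs, 18 of 24 in Early regions and 76.2% over all regions.

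**Figure D3:**
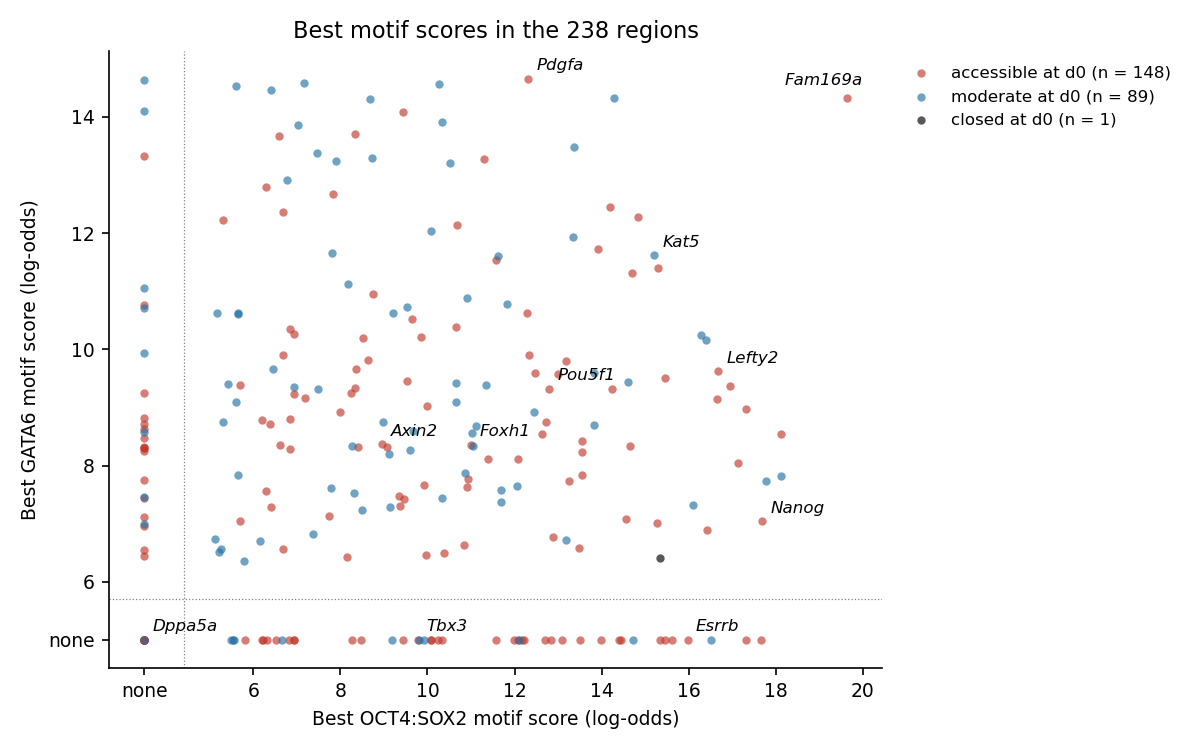
Best GATA6 motif score (y axis, log-odds) against best OCT4:SOX2 motif score (x axis, log-odds) for each of the 238 regions, coloured by accessibility class at d0, with regions lacking a motif drawn at "none". The named regions range from Dppa5a with neither motif, through Esrrb with an OCT4:SOX2 motif only, to Fam169a with scores of 14.3 and 19.6.

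The motifs also differed in where they lay. The best OCT4:SOX2 motif started within 100 bp of the GATA6 summit in 49.2% of all members (117 of 238) and the best GATA6 motif in 39.5% (94). In active enhancers these shares were 54.4% and 39.8%. In promoter-state regions without PTFs they were 15.0% and 63.6%, and in Early regions 25.9% and 51.9%. The median distance from the summit to the centre of the best motif was 71 bp for OCT4:SOX2 and 92.5 bp for GATA6 in members that hold the motif, against 67 and 108 bp in active enhancers and 136 and 53 bp in promoter-state regions without PTFs. Of the 159 members with both motifs, the OCT4:SOX2 motif was the nearer to the GATA6 summit in 86, or 54.1% (46.3 to 61.6). The share was 55.3% of 949 active enhancers, 48.2% of 7151 regions with both motifs and PTFs from d0, 26.8% of 257 promoter-state regions without PTFs and 35.7% over all regions. Tested as an alternative to motif presence, the share with the best motif within 100 bp of the summit differed from that in promoter-state regions without PTFs for OCT4:SOX2 (log2 odds ratio 2.45, adjusted p = 1.88e-23) and for GATA6 (-1.42, adjusted p = 4.46e-10). Against active enhancers neither passed, at -0.30 (adjusted p = 0.234) for OCT4:SOX2 and -0.0168 (adjusted p = 1) for GATA6. Against Early regions OCT4:SOX2 passed (1.47, adjusted p = 0.0465) and GATA6 did not (-0.72, adjusted p = 0.356). The median distances and the order of both motifs were not tested. For OCT4:SOX2 the difference from regions without PTFs is again not independent of the rule.

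**Figure D4:**
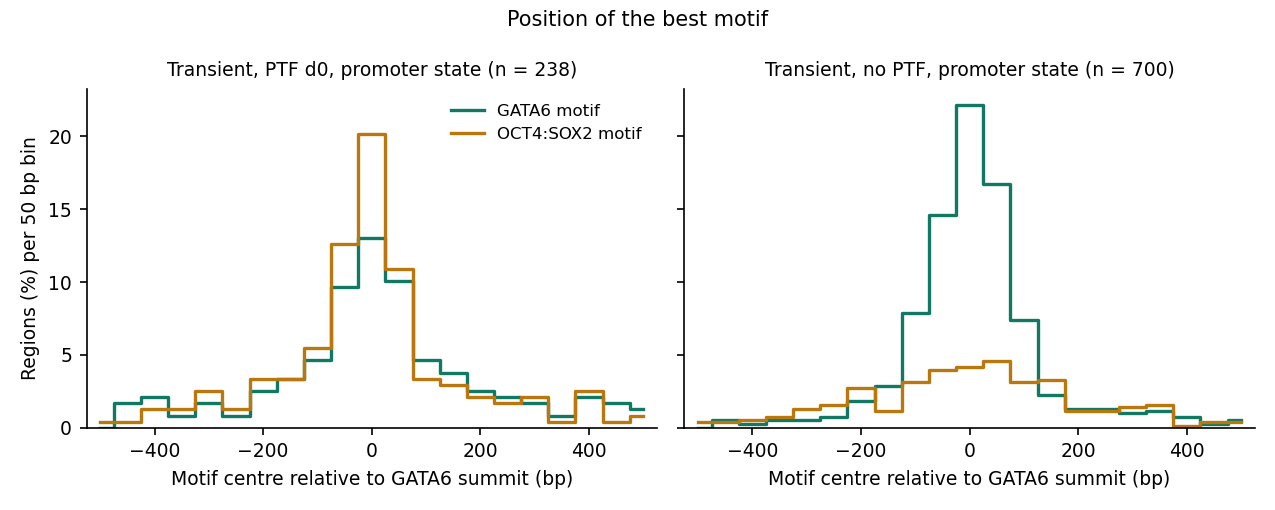
Share of regions (y axis, % per 50 bp bin) whose best GATA6 or OCT4:SOX2 motif is centred at a given distance from the GATA6 summit (x axis, bp), for the 238 members (left) and the 700 promoter-state regions without PTFs (right). In the central bin the OCT4:SOX2 motif reached 20.2% of members against 13.03% for GATA6, and on the right these values were 4.14% and 22.1%.

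The spacing between both motifs was wide. Among the 159 members with both, their centres were a median of 203 bp apart (quartiles 88.5 and 372.5 bp), within 50 bp in 27 (17.0%) and overlapping in 6 (3.77%). Centres lay within 50 bp in 11.4% of active enhancers, 21.8% of promoter-state regions without PTFs, 15.0% of Early regions and 19.3% of all regions. Motifs overlapped in 2.53%, 5.84%, 5.0% and 4.61% of the same sets, each counted where both motifs were present. The median distances between centres were 198 bp in active enhancers and 137 bp in promoter-state regions without PTFs, whose regions were narrower. The 13 regions with both motifs close together at the summit were thus a small part of the whole.

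The response of GATA6 to Oct4 knockdown was the authors' class for each region, from GATA6 ChIP-seq after 48 h of Dox with Oct4 or control siRNA in 1 of the clones. Over all 42403 regions 6.25% were classed as decreased and 8.57% as increased. Of the 238 members 14 (5.88%, 3.54 to 9.63) were classed as decreased, a share close to that background. Among all regions with PTFs from d0, which include the members, the share was 13.3%. None of the members was classed as increased (0 of 238, which allows a share of up to 1.26% by taking 3 counts as the limit, or 1.59% by the Wilson interval, covering counting error only). Among active enhancers 5.42% were decreased (67 of 1237), with a log2 odds ratio of 0.13 (-0.73 to 0.98, adjusted p = 0.825). Among promoter-state regions without PTFs 1.14% were decreased (8 of 700), with a log2 odds ratio of 2.43 (1.16 to 3.71, adjusted p = 3.38e-04) and a higher share in the members on 9 of 19 chromosomes. With widths limited to the interquartile range of the members this call was lost (log2 odds ratio 1.94, adjusted p = 0.0647). Against Early regions (3 of 27) the log2 odds ratio was -1.0 (-2.90 to 0.90, adjusted p = 0.558).

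All 14 decreased members held an OCT4:SOX2 motif and 13 held a GATA6 motif. Over all 238 members the shares were 85.3% and 77.3%, and the difference was not tested. The OCT4:SOX2 scores of the decreased members ran from 6.93 to 17.8 with a median of 9.97, against 10.1 in the members not classed as decreased. Their GATA6 scores ran from 7.28 to 14.6 with a median of 9.35, against 8.92. Of the 14, 8 had a summit within 1 kb of a start and 7 were accessible at d0. Among the higher GATA6 scores were 14.6 near 2410137M14Rik (1106 bp upstream), 13.4 at Lpar5 (213 bp downstream), the gene of a lysophosphatidic acid receptor, and 12.04 at Rnf220 (230 bp upstream), the gene of a ubiquitin ligase. Lower scores were 10.2 at C330002G04Rik, 9.66 at Ccdc194, 9.35 at Fis1 (a mitochondrial fission gene), 9.23 near Myo10 (an unconventional myosin gene), 8.74 at Yars2 (a mitochondrial tRNA synthetase gene) and 8.36 at Foxh1, the gene of a SMAD partner in Nodal signalling, where the summit lay 6 bp downstream of the start. Rnf220 was also among the regions with both motifs close together at the summit. The decreased member near 2410137M14Rik also lay within 150 kb of a start of Zfp57, a gene on the pluripotency list. The other members within 150 kb of a gene on that list, among them those at Nanog, Pou5f1, Esrrb and Tbx3, were classed as unchanged.

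Base composition placed the regions between active enhancers and promoter-state regions without PTFs. A window of 100 bp to each side of the summit was called CpG-rich where its GC content was at least 50% and its ratio of observed to expected CpG at least 0.6. Of the 238 members 35 (14.7%, 10.8 to 19.8) were CpG-rich, against 0.485% of active enhancers (6 of 1237), with a log2 odds ratio of 5.14 (3.88 to 6.41, adjusted p = 3.01e-22) and the higher share in the members on 13 of 19 chromosomes. The share was 35.0% in promoter-state regions without PTFs (245 of 700), with a log2 odds ratio of -1.64 (-2.21 to -1.08, adjusted p = 3.05e-09), and the members had the higher share on 0 of 19 chromosomes. Against Early regions, of which 5 of 27 (18.5%) were CpG-rich, the log2 odds ratio was -0.40 (-1.89 to 1.09, adjusted p = 0.657). Among members within 1 kb of a start 22.2% were CpG-rich and among the others 8.46%, while among promoter-state regions without PTFs within 1 kb the share was 45.6%. The median GC content was 50.7% in members, 46.8% in active enhancers and 55.7% in promoter-state regions without PTFs. The regions at Axin2, Trim71 (an RNA-binding protein gene of stem cells) and Spred2 were CpG-rich, with observed to expected ratios of 0.82, 0.83 and 0.96, and the one at Nanog was not, at 0.29. Trim71 was named after its values were seen.

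**Figure D5:**
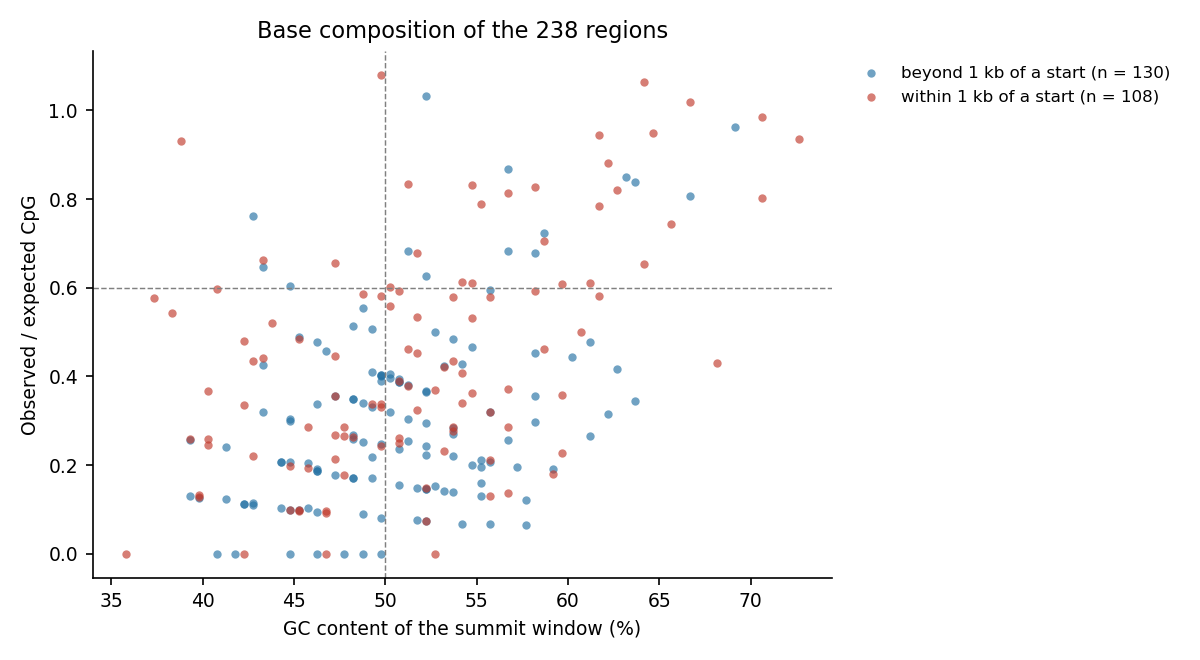
Ratio of observed to expected CpG (y axis) against GC content (x axis, %) of the summit window for each of the 238 regions, coloured by whether the summit lies within 1 kb of a transcript start, with dashed lines at the limits of 50% and 0.6. The upper right area holds the 35 CpG-rich members, 24 of them within 1 kb of a start.

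Short letter motifs were also searched in the same windows on both strands. They were not tested and did not all differ between the sets in the same way. AGATAA, the GATA core, was present in 25.2% of member windows, 26.9% of active enhancers, 44.9% of promoter-state regions without PTFs, 48.1% of Early regions and 54.3% of all windows. ATGCAAA, an octamer core bound by OCT4, was present in 13.03% of member windows, 14.6% of active enhancers, 1.86% of promoter-state regions without PTFs and 6.87% of all windows. AAGGTCA, the ESRRB core, was present in 10.9% of member windows, 12.7% of active enhancers, 3.71% of promoter-state regions without PTFs and 7.06% of all windows. GGGCGGG, bound by SP and KLF factors, was present in 10.1% of member windows, 3.23% of active enhancers, 18.9% of promoter-state regions without PTFs and 3.79% of all windows. CCAAT, bound by NF-Y, was present in 23.1% of member windows, 21.7% of active enhancers, 20.1% of promoter-state regions without PTFs and 22.1% of all windows. ACAATGG, bound by SOX factors, was present in 4.20% of member windows, 4.37% of active enhancers, 1.29% of promoter-state regions without PTFs and 8.96% of all windows. TATAAA, the TATA box, was present in 2.94%, 7.84%, 3.0% and 7.80% of the same sets. CCGGAAG, bound by ETS factors, and the E-box CACGTG were each present in 3.36% of member windows. GATGGCG, part of the YY1 motif, and GCATGCG, part of the NRF1 motif, were each present in 1.26%. The cyclic AMP response element TGACGTCA was present in 0.42%. For the letters from CCGGAAG onwards only the share in the members is given, so it cannot be set against other windows here. A match is a description of the letters and not of binding.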

How the data were processed

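The deposited table of GATA6 binding regions has 105 columns, of which 34 were used. The other 71 hold signal values that match no library of the series, or groupings of the motif values. Per the study's methods, the authors aligned reads with Bowtie2 to mm10, found GATA6 peaks with MACS2 in merged replicates, keeping those found in every replicate too. The authors assigned the Transient, PTF, SOX17, accessibility, histone state and Oct4 knockdown classes, the last with DESeq2. The deposited motif score is the FIMO log-odds score of the best hit, with no normalization and empty where no hit was found. The thresholds of the accessibility class and of FIMO are not given in the sources used here.

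Summits were annotated with GENCODE M21, and sequences were read from GRCm38 with samtools 1.23.1. One member has a best GATA6 motif listed as shorter than its matrix, and its letters are not printed. Two-sided Fisher's exact tests compared 8 properties in 3 comparisons (24 tables, Benjamini-Hochberg), with log2 odds ratios and 95% Woolf intervals (0.5 added to every cell where a cell was 0). Python 3.11.15, scipy 1.17.1 and statsmodels 0.14.6 were used. The odds ratio code was tested on simulated data. Alternatives changed width, chromosomes, start distance, motif position and score, accessibility class and CpG limits. No library entered a test, and p-values measure only the spread over regions.

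The text names, for each motif, the 2 members with the highest score, members within 1 kb of a start of a gene on 5 lists (at most 12 per list), decreased members (at most 10, by GATA6 score), the 3 widest and 3 narrowest members, and 5 members with both motifs close together at the summit. The members and lists were chosen with earlier results of these data known. The Oct4 knockdown classes rest on the authors' own comparison of knockdown and control libraries. Some members named by this rule are not reported here.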

Additional observations from a re-analysis of the deposited data

How the results depend on the processing

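Log2 odds ratios and mean scores were recomputed under 13 alternative settings, in 120 values in all, of which 106 kept their direction and side of the threshold, 6 lost the call, 3 gained it and 5 turned direction. With widths limited to the interquartile range of the members, calls were lost for the SOX17 motif (-0.70) and the OCT4:SOX2 motif (-0.77) against active enhancers and for decreased GATA6 after Oct4 knockdown against regions without PTFs (1.94), the GATA6 motif against active enhancers passed (-0.92), and decreased GATA6 against Early regions turned to 0.73. With accessible and moderate classes together, accessibility turned to -0.0561 against active enhancers and was no longer called against regions without PTFs (1.63). With the best motif starting within 100 bp of the summit, the OCT4:SOX2 (-0.30) and SOX17 (-0.50) motifs against active enhancers lost the call, OCT4:SOX2 against Early regions passed (1.47), and ESRRB against Early regions turned to 0.38. Nearness to protein-coding starts passed against Early regions (-1.36). Against Early regions the OCT4:SOX2 motif turned to -0.0162 without chromosomes X and Y, and CpG-rich windows to 0.0324 with the stricter limits. All 24 tables kept direction and call within 5 width bins. No reversed value was called in the main tests except accessibility against active enhancers. The width limit also left fewer regions, and the cause of these changes was not tested. No paired analysis was possible because no library enters a test and the columns used carry no replicate. The number of Early regions limits what that comparison can show.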

Other observations

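Of the 238 regions, 11 lay within 10 kb of another member, and they are named after their values were seen. They formed pairs at Itga6, the gene of a laminin-binding integrin, where the second region was nearest to Gm17250, at Tbx3, at Serbp1 and downstream of Sox2, and a group of 3 at Myo10. At Serbp1, the gene of an mRNA-binding protein, the summits lay 28 bp upstream and 687 bp downstream of annotated starts. At Myo10 they lay 1137, 3768 and 603 bp downstream of the nearest of several annotated starts, and the middle region was classed as decreased after Oct4 knockdown.

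The widest members were at Mir5135 and Plekhg3 (chr12:76531445-76533700, 2256 bp), downstream of Klf4 (2152 bp) and at Hnrnpr, the gene of an RNA-binding protein (chr4:136309836-136311976, 2141 bp). Their GATA6 scores were 14.6, 11.3 and 13.7. The narrowest were near 6030442K20Rik (204 bp), Ddx47 (222 bp) and Gm5963 (265 bp). The first had a GATA6 score of 14.6 and no OCT4:SOX2 motif, the second no motif, and the third an OCT4:SOX2 score of 15.4 and no GATA6 motif. Summits within 100 bp of a start included those at Hsp90aa1, the gene of a heat shock chaperone (32 bp upstream), and Atoh1, a neural transcription factor gene (74 bp upstream), both named after their values were seen.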
